A study of Mus musculus with 6 samples.

Results

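The 44 genes examined here encode the machinery that copies nuclear DNA. They were taken as a list of symbols covering the origin recognition complex, the MCM2-7 helicase and the factors that switch it on, the replicative polymerases and primase, the sliding clamp and its loader, the enzymes that join Okazaki fragments, the single-strand binding protein RPA, and the enzymes that supply deoxynucleotides. The list was chosen with earlier results of these data known, so its shares set against all tested genes are descriptions. All 44 were found among the 28418 genes of the deposited tables, and all 44 were among the 11741 genes tested, which had a mean of at least 1 FPKM (a level per transcript length and per mapped fragments of the library). The samples were 6 poly(A) RNA libraries of 4T1, a mouse mammary carcinoma line labelled as epithelial cells, which the series calls triple negative. Cells of 3 libraries carry the label 0 nM and those of the other 3 the label 100 nM PFOS (perfluorooctane sulfonate, a fluorinated surfactant that degrades poorly), and the series describes 35 passages of culture for both doses. The labels do not state whether libraries of 1 dose are separate cultures, and every p-value therefore reflects the spread among these 6 libraries alone, possibly a technical one. The comparison asks which replication genes differ in transcript level after long culture with PFOS.

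Replication origins are licensed in G1, when the origin recognition complex, Cdc6 and Cdt1 load the MCM2-7 ring onto DNA as an inactive helicase. Cdc45 and the GINS complex then bind the ring in S phase to form the active CMG helicase, behind which polymerase epsilon copies the leading strand and polymerase alpha with primase and polymerase delta copy the lagging strand. Many of these genes are transcribed together as cells enter S phase under E2F factors, and in tumour lines their transcripts are widely read as proliferation genes.

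The differences of the replication genes between the doses were small, from -0.23 to 0.11 in log2(FPKM + 1). At 100 nM, 2 of the 44 genes fell at an adjusted p under 0.05 (limma with Benjamini-Hochberg adjustment over all 11741 genes), namely Mcm4, a subunit of the helicase ring, and Cdc45, its activator. None rose. Over all tested genes, 2.46% were called lower and 1.69% higher, so 2 of 44 is close to the background. At an unadjusted p under 0.05, 9 of the 44 genes were lower (20.5%) and 1 was higher (2.27%), against 10.2% lower and 10.6% higher of all tested genes. Both fallen genes lie on chromosome 16, as does 1 other member, Rfc4, and none of the 41 members on other chromosomes was called. In 14 of the 44 genes every library of 1 dose lay above every library of the other, against 26.9% of all tested genes. In 13 of these 14 the 100 nM libraries were the lower ones (29.5% of the 44) and in 1 the higher ones (2.27%), whereas over all tested genes the shares were 13.3% and 13.7%. Outside chromosome 16, 10 of the 41 genes had lower and 1 had higher libraries without overlap, and 6 were lower and 1 higher at an unadjusted p under 0.05. Of all 11394 tested genes outside chromosome 16, 1397 had lower and 1589 higher libraries without overlap. At an unadjusted p under 0.05, 1044 of these 11394 were lower and 1228 higher. The mean was lower at 100 nM for 28 of the 44 genes (63.6%), against 47.4% of all tested genes, and the median difference in log2(FPKM + 1) was -0.02 against 0.01. The libraries are bulk RNA, so fewer cells expressing a gene and less RNA per cell cannot be told apart.

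**Figure D1:**
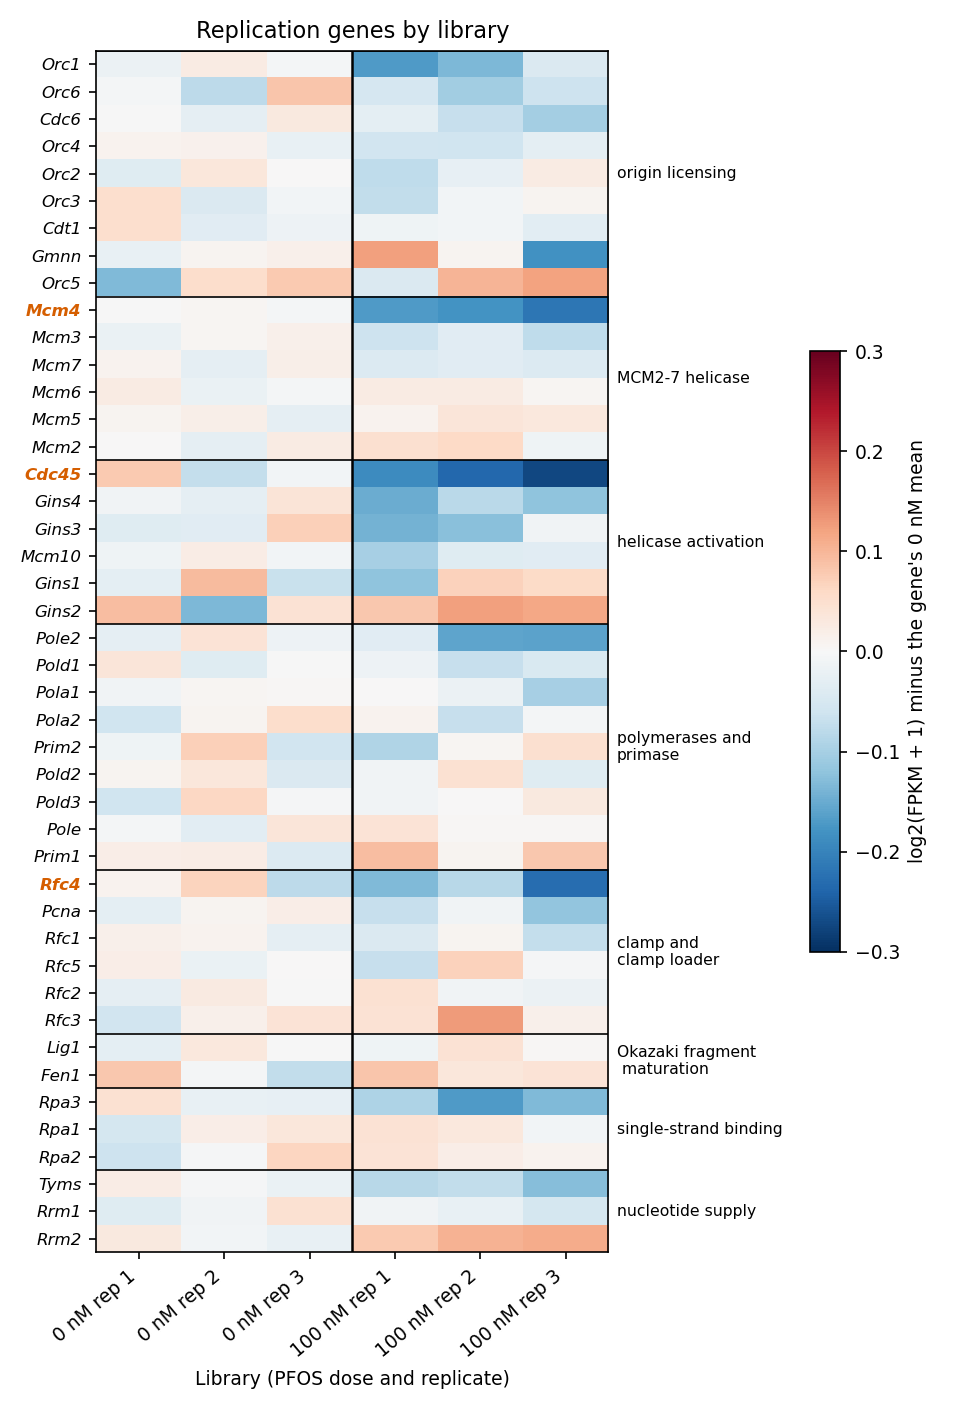
Each row is a replication gene and each column a library, and the colour gives the library's log2(FPKM + 1) minus the gene's mean over the 3 libraries at 0 nM. Genes are grouped by role, and the 3 on chromosome 16 (orange names) are lower in all 3 libraries at 100 nM.

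Promoter sequences show a feature of the set that the list of names did not use. RefSeq promoters (GRCm38.p6, 300 bases that begin upstream of the start and end just inside the gene) were matched for 36 of the 44 genes by symbol. The forms of the E2F site searched were TTCCCGC and the variant TTGGCGC, then the variant TTCGCGC and lastly TTGCCGC. At least 1 of them stood on either strand, in any promoter of the gene, in 24 of the 36 genes (66.7%). The share was 21.1% of the 8282 tested genes with a promoter. Counted by single promoter, 26 of the members' 44 promoters held a match (59.1%), against 9.57% of all 32851 promoters. Overlapping matches were counted separately, and the same letters on both strands can overlap. The letters CCAAT, the binding motif of NF-Y, stood in 23 of the 36 genes (63.9%), against 43.4% of the tested genes. By single promoter it was 25 of 44 (56.8%), against 37.4% of all promoters. Median GC content was 60.7% in the members' promoters and 61.3% in those of the tested genes. The promoters of both matched chromosome 16 genes are printed with those of 2 helicase subunits that were not called, 5′ to 3′ on the strand of the gene, with matches to either motif in capitals. Cdc45 lies on the minus strand with its promoter at chr16:18811923-18812222, Rfc4 on the minus strand at chr16:23127681-23127980, Mcm6 on the minus strand at chr1:128359656-128359955 and Mcm5 on the plus strand at chr8:75109259-75109558.
Cdc45: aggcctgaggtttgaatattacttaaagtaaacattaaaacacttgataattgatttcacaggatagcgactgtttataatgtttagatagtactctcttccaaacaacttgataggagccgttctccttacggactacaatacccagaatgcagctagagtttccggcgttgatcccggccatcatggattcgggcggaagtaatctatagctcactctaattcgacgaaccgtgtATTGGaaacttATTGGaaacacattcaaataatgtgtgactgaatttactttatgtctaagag
Rfc4: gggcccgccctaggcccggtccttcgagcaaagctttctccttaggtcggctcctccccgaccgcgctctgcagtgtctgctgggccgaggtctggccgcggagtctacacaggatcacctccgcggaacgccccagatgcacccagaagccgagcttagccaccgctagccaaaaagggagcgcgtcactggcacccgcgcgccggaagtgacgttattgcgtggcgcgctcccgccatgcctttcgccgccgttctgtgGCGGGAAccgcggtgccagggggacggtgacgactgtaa
Mcm6: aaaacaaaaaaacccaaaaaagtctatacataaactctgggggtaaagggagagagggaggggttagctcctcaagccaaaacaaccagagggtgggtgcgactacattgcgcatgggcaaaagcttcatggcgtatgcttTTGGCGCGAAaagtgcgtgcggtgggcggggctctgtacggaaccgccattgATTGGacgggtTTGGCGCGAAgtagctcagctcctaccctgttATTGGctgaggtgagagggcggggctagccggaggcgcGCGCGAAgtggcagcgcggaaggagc
Mcm5: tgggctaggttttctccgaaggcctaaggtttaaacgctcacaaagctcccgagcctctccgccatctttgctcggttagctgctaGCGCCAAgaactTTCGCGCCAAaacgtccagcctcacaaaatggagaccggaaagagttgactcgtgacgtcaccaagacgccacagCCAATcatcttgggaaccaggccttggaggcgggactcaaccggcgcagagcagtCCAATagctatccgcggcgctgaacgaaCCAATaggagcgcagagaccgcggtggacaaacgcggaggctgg
The Cdc45 window holds 2 CCAAT matches and 0 E2F matches, at a GC content of 38.7%. The Rfc4 window holds 1 E2F match and 0 CCAAT matches, at 67.3% GC. Mcm6 has 5 E2F matches, in 2 pairs that overlap and 1 that stands alone, and Mcm5 has 3. A match is a description of letters and not a site shown to be bound.

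Among the licensing genes no call was made. Of 9 genes, 8 had a lower mean at 100 nM and 1 a higher one, with differences from -0.12 to 0.06 and levels from 4.84 to 39.3 FPKM. The share of lower means was 88.9%, against 63.6% of the 44 genes and 47.4% of all tested genes. Orc1, the largest subunit of the origin recognition complex, was at 11.4, 11.7 and 11.5 FPKM at 0 nM and at 10.1, 10.4 and 11.1 FPKM at 100 nM. Its groups did not overlap, but the difference of -0.12 (95% interval -0.21 to -0.02) did not pass the adjustment (limma adjusted p = 0.161). Cdt1, the loading factor and the most abundant gene of the group, had 40.9, 38.5 and 39.1 FPKM at 0 nM and 39.1, 39.3 and 38.7 FPKM at 100 nM, which overlap. Gmnn, the inhibitor of Cdt1, spread more widely between the 100 nM libraries than any other member, with 36.8, 33.9 and 29.7 FPKM and a coefficient of variation of 10.8%, against 33.2, 33.9 and 34.1 FPKM at 0 nM. The remaining subunits Orc2 to Orc6 and the loader Cdc6 had adjusted p-values from 0.284 to 0.778 in limma.

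Within the helicase ring Mcm4 stood apart from its 5 partners. Mcm4 (ENSMUSG00000022673, chr16:15623897-15637400, minus strand, GRCm38) was at 62.4, 62.7 and 62.1 FPKM at 0 nM and at 55.4, 55 and 53.5 FPKM at 100 nM. Every library at 100 nM was below every library at 0 nM by several times the spread within either dose. The means were 62.4 ± 0.305 and 54.7 ± 0.991 FPKM (SD, n = 3 each), a ratio of 0.875. On the log2(FPKM + 1) scale the difference was -0.19 (95% interval -0.24 to -0.14, limma adjusted p = 0.00817). Mcm5, the most abundant subunit, had 93.0, 93.7 and 90.7 FPKM at 0 nM and 93.2, 94.8 and 94.5 FPKM at 100 nM. Its groups overlap, and its interval of -0.02 to 0.07 holds 0. Mcm2, Mcm3, Mcm6 and Mcm7 differed by 0.03, -0.06, 0.02 and -0.04 on that scale, with limma adjusted p-values from 0.193 (Mcm3) to 0.678 (Mcm6). The 0 nM and 100 nM libraries of Mcm3 and Mcm7 did not overlap, with the 100 nM libraries the lower ones.

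FPKM is per transcript length, so the transcript levels of the subunits were set against each other. The balance of the proteins in the ring was not measured. Mcm4 stood at 1.03, 1.04 and 1.02 times the mean of the other 5 subunits in the 0 nM libraries and at 0.919, 0.901 and 0.892 times that mean in the 100 nM libraries. The ratio fell in every 100 nM library below every 0 nM library (1.03 ± 0.00681 against 0.904 ± 0.0138, SD, n = 3; exact two-sided permutation p = 0.1, the smallest that 3 against 3 can give). The same ratio for Mcm2, Mcm5 and Mcm6 was higher in all 3 libraries at 100 nM, for Mcm5 1.79 ± 0.0287 against 1.69 ± 0.0366 (n = 3, exact permutation p = 0.1), but the mean they are divided by contains Mcm4. For Mcm7 the ratio was 0.875 at 100 nM and 0.877 at 0 nM, with overlapping groups. Mcm7 shares 33.4% of its 31-base words with transcripts of other annotated genes, where matches on either strand were counted, here and below. The level of Mcm7, which also enters the mean used for the other subunits, therefore depends on how such reads were assigned. Ratios were computed for 9 genes, and with 3 libraries a dose none can pass 0.05.

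Cdc45 was the other called gene and the activation factor with the largest difference. Cdc45 (ENSMUSG00000000028, chr16:18780447-18811972, minus strand) had 20.2, 18.1 and 19.0 FPKM at 0 nM and 16.6, 16.1 and 15.6 FPKM at 100 nM. All 3 libraries at 100 nM lay below the lowest at 0 nM. The means were 19.1 ± 1.04 and 16.1 ± 0.502 FPKM (SD, n = 3 each), a ratio of 0.843, and the log2 difference was -0.23 (95% interval -0.34 to -0.13, limma adjusted p = 0.0414). Relative to the mean of the 4 GINS genes, whose proteins bind beside it, Cdc45 stood at 1.30 ± 0.0669 at 0 nM and 1.14 ± 0.0715 at 100 nM (n = 3, exact permutation p = 0.1). Gins4 had 29.89, 29.57 and 30.97 FPKM at 0 nM and 27.1, 28.4 and 27.6 FPKM at 100 nM, with no overlap, a difference of -0.12 and a limma adjusted p of 0.0802. Gins1, Gins2 and Gins3 and the activation factor Mcm10 were not called, with differences from -0.09 (Gins3) to 0.11 (Gins2). Gins2, which is part of the GINS mean, shares 66.2% of its 31-base words with transcripts of other annotated genes. All 66.2% is shared with Gse1, which overlaps it on the opposite strand. The value of Gins2 therefore depends on how such reads were assigned and on whether strand was used.

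**Figure D2:**
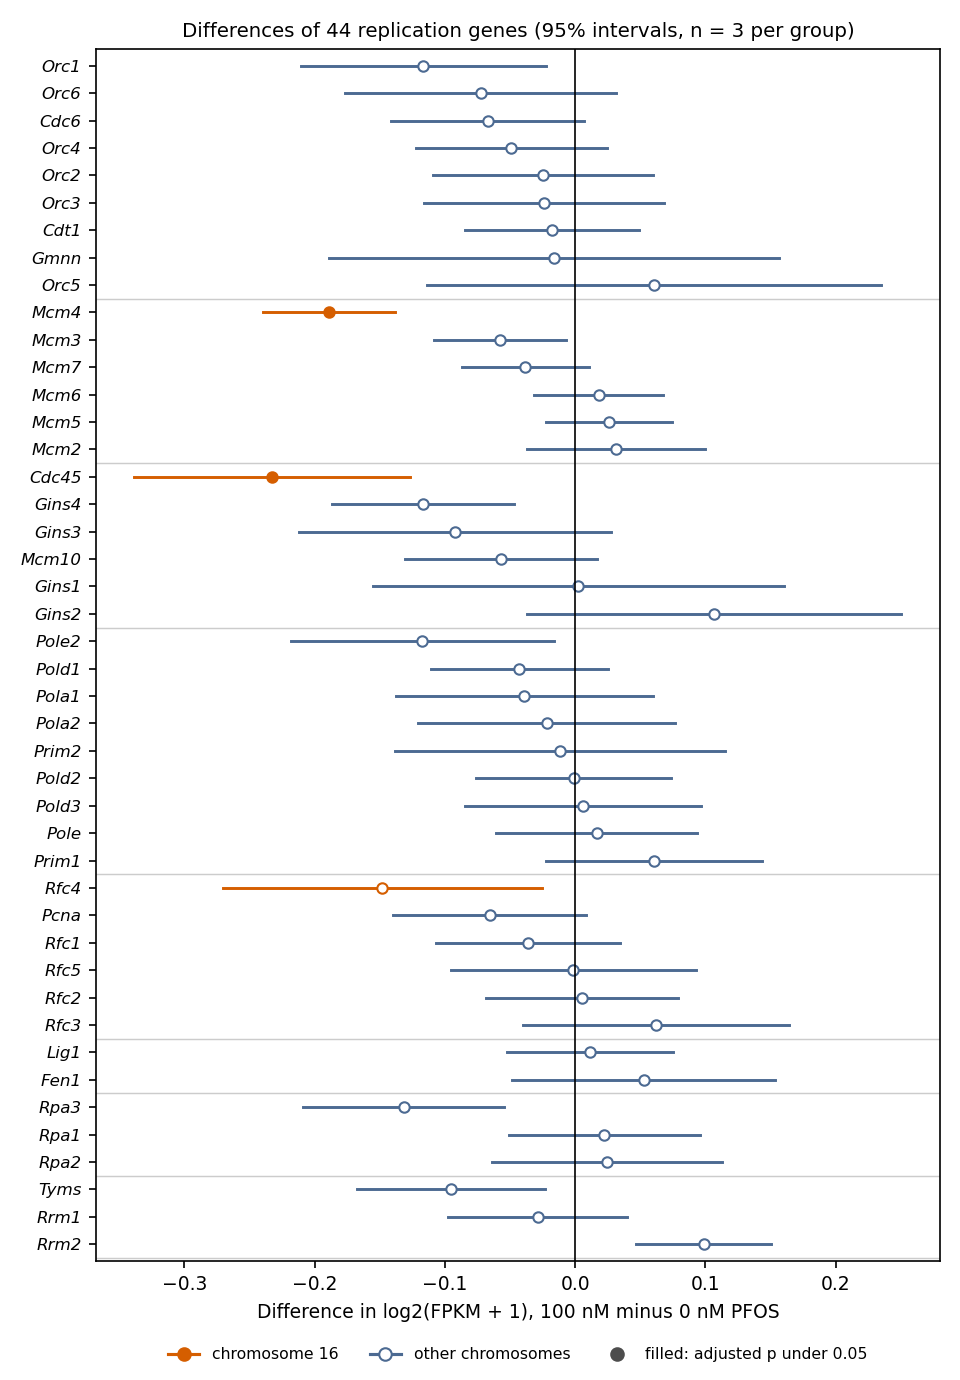
Points give the difference in log2(FPKM + 1), 100 nM minus 0 nM PFOS, for each replication gene, bars its 95% interval from limma (n = 3 per group), and filled points an adjusted p under 0.05. Only the intervals of Mcm4 and Cdc45, both on chromosome 16 (orange), belong to called genes.

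The polymerase and primase genes held 0 calls among 9, with 6 lower means (66.7%, against 47.4% of all tested genes) and 3 higher ones. Pole2, the accessory subunit of the leading-strand polymerase, had 18, 18.9 and 18.1 FPKM at 0 nM and 17.9, 16.4 and 16.3 FPKM at 100 nM, a difference of -0.12 (limma adjusted p = 0.183). The groups are separated by less than the spread within the 100 nM libraries. The catalytic subunit Pole, by contrast, had 7.78 ± 0.212 FPKM at 0 nM and 7.88 ± 0.127 FPKM at 100 nM (SD, n = 3). Pold2, a subunit of polymerase delta and the most abundant gene of the group, had 57.6, 58.7 and 55.5 FPKM at 0 nM and 56.8, 59.1 and 55.8 FPKM at 100 nM. Its interval reached from -0.08 to 0.07. Pola1, the catalytic subunit of polymerase alpha, was the lowest of the 44 genes at 4.13 FPKM over the 6 libraries.

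The clamp Pcna was the most abundant of all 44 genes, at 115.2, 118.3 and 119.1 FPKM at 0 nM and 112, 116.7 and 108.2 FPKM at 100 nM. The groups overlap, and its difference was -0.07 (limma adjusted p = 0.296). Of the loader genes Rfc4 had the largest difference. Rfc4 (ENSMUSG00000022881, chr16:23113943-23127737, minus strand) was at 24.2, 25.2 and 22.7 FPKM at 0 nM and at 21.8, 22.6 and 20.4 FPKM at 100 nM. The highest 100 nM library stood just under the lowest 0 nM library. The difference of -0.15 (95% interval -0.27 to -0.03) had an unadjusted p of 0.0247 in limma and did not pass the adjustment (adjusted p = 0.168). Against the mean of Rfc2, Rfc3 and Rfc5, its partners in the small-subunit ring, Rfc4 stood at 1.95 ± 0.111 at 0 nM and 1.73 ± 0.0616 at 100 nM (n = 3, exact permutation p = 0.1). The large subunit Rfc1 and these 3 partners differed by -0.04 to 0.06.

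Okazaki fragment maturation was represented by Lig1, the ligase that seals the fragments, and Fen1, the flap nuclease. Lig1 had 40.5, 42.3 and 41.3 FPKM at 0 nM and 41.0, 42.7 and 41.5 FPKM at 100 nM, and Fen1 26.3, 24.7 and 23.5 against 26.3, 25.4 and 25.5 FPKM. Both genes overlap between the doses, and neither was called. Fen1 shares 79.6% of its 31-base words with transcripts of other annotated genes, and 76.8% with the antisense gene Gm10143 alone. The value of Fen1 therefore depends on how such reads were assigned and on whether strand was used. Of the 3 RPA genes, which encode the protein that coats single-stranded DNA, Rpa1 was the most abundant and overlapped between the doses, with 34.5, 36.3 and 36.7 FPKM at 0 nM and 37.0, 36.7 and 35.6 FPKM at 100 nM. Rpa3, the smallest subunit, had 27.0, 25.7 and 25.6 FPKM at 0 nM and 24.4, 23.1 and 23.7 FPKM at 100 nM, with no overlap. Its difference of -0.13 (95% interval -0.21 to -0.05) had an adjusted p of 0.0782 in limma. Rpa2 differed by 0.02.

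Of the genes for nucleotide supply, Rrm2 was the only member of all 44 whose libraries at 100 nM were all above those at 0 nM. Rrm2, the small subunit of ribonucleotide reductase that is made in S phase, had 98.9, 96.3 and 95.3 FPKM at 0 nM and 102.3, 104.2 and 104.7 FPKM at 100 nM. Its difference of 0.10 (95% interval 0.05 to 0.15) missed the adjusted threshold (limma adjusted p = 0.0587). Rrm1, the large subunit, had 31.5 ± 0.959 FPKM at 0 nM and 30.8 ± 0.481 FPKM at 100 nM, so that Rrm2 stood at 3.08 ± 0.148 times Rrm1 at 0 nM and 3.37 ± 0.0901 times at 100 nM (SD, n = 3, exact permutation p = 0.1). Rrm2 shares 12.8% of its 31-base words with transcripts of other annotated genes. Tyms, thymidylate synthase, had 9.67 ± 0.162 and 8.99 ± 0.20 FPKM, with no overlap and a limma adjusted p of 0.140.

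**Figure D3:**
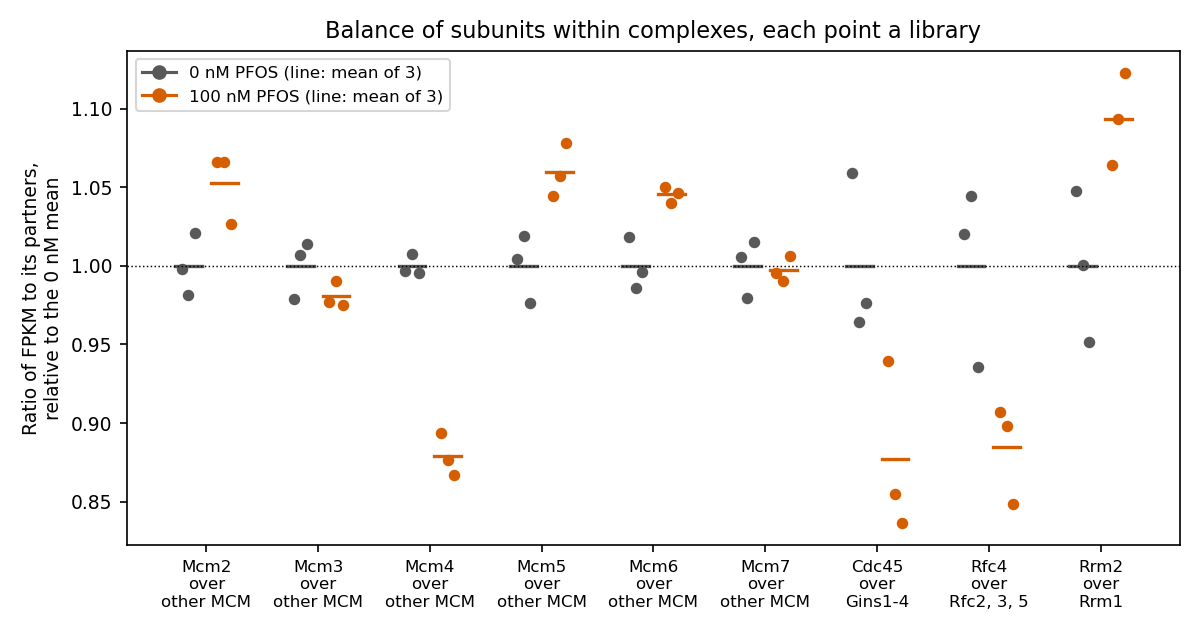
Each point is a library's FPKM of the named gene over that of its partners (the mean, where there are several), divided by the mean of that ratio at 0 nM, and lines are means of 3 libraries. The ratios of Mcm4, Cdc45 and Rfc4 are lower in all 3 libraries at 100 nM, and that of Rrm2 over Rrm1 is higher.

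For the 41 members outside chromosome 16 the intervals give the size of change these libraries could have shown. The 95% interval of 35 of the 41 lay wholly within 0.2 log2 units of 0, a change of 12.9% down or 14.9% up. It held 0 for 34 genes, lay below 0 for 6 (Orc1, Mcm3, Gins4, Pole2, Rpa3 and Tyms) and above 0 for Rrm2. The bounds farthest from 0 were -0.22 for Pole2 and 0.25 for Gins2. The libraries of a dose were close together, with a median coefficient of variation over the 44 genes of 2.63% at 0 nM and 2.74% at 100 nM. Mcm4 had the smallest at 0 nM, 0.489%.

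On chromosome 16 lower levels at 100 nM were not limited to replication genes. Of the 347 tested genes there, 72 (20.7%) were called lower and 1 higher. Between 10 and 45 Mb, a stretch chosen after its values were seen and holding Mcm4, Cdc45 and Rfc4, 174 of 195 genes had a lower mean, with a median difference of -0.17, and 69 were called lower and 0 higher. On the rest of the chromosome 83 of 152 genes had a lower mean, with a median of -0.02, and 3 were called lower and 1 higher. Within 2 Mb of Mcm4, 30 of 34 tested neighbours had a lower mean (median -0.15, 6 called lower), and within 2 Mb of Cdc45 49 of 57 (median -0.13, 11 called lower), where these windows overlap and other members were left out. Near Rfc4 it was 14 of 18 (median -0.09, 4 called lower). None of these neighbours was called higher. Without 100 nM replicate 3, which stands apart in T and NK cell markers, 43 of the 347 were called lower and 0 higher, at a median of -0.09 for the chromosome. The differences of Mcm4 (-0.19), Cdc45 (-0.23) and Rfc4 (-0.15) were each somewhat farther from 0 than the median of their neighbours, and whether they exceed it was not tested.

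**Figure D4:**
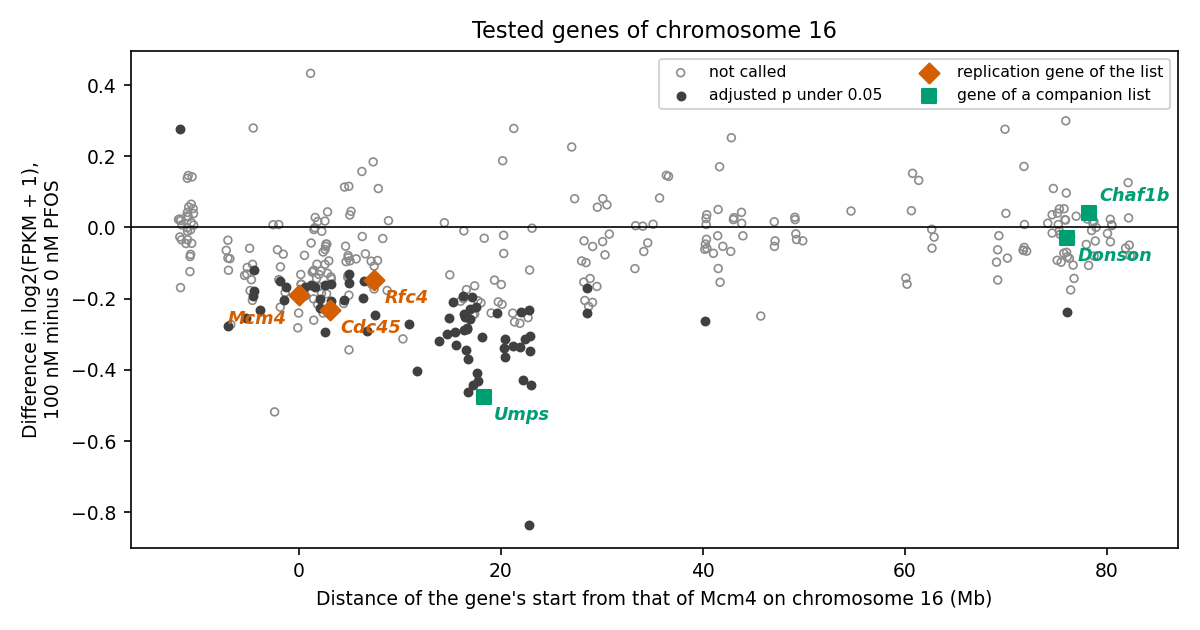
Each point is a tested gene of chromosome 16, placed by the distance of its start from that of Mcm4 in Mb, against its difference in log2(FPKM + 1), 100 nM minus 0 nM PFOS. Mcm4, Cdc45 and Rfc4 lie among many genes below 0, and Umps lies farther along the same stretch.

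The nearest genes show the same sign. Prkdc, which encodes the catalytic subunit of DNA-dependent protein kinase, begins 0.466 kb from Mcm4 on the opposite strand and had 2.68, 2.30 and 2.26 FPKM at 0 nM and 1.91, 1.99 and 1.76 FPKM at 100 nM, with no overlap and a limma adjusted p of 0.110. On the other side the transporter gene Abcc1, at a gap of 1148 kb, fell from 12.8 ± 0.127 to 11.3 ± 0.201 FPKM (SD, n = 3, limma adjusted p = 0.0255). The closer Ube2v2, at 28.1 kb, and Mzt2 overlapped between the doses and were not called. Ufd1, a partner of the p97 segregase whose first bases overlap those of Cdc45 on the other strand, fell from 13.1 ± 0.590 to 11.2 ± 0.380 FPKM (n = 3, limma adjusted p = 0.0468). The other neighbours of Cdc45, Rtl10, Sept5 and 2510002D24Rik, had lower means and overlapping groups. Eif4a2, a translation factor gene whose end overlaps that of Rfc4, had 59.3 ± 0.549 FPKM at 0 nM and 54.9 ± 1.69 FPKM at 100 nM (n = 3, limma adjusted p = 0.0792). The sialyltransferase gene St6gal1, at a gap of 97.0 kb from Rfc4, fell from 8.71 ± 0.298 to 7.18 ± 0.146 FPKM (n = 3, limma adjusted p = 0.0186), and Masp1 and the small nucleolar RNA Gm24616 were not called. The libraries were made with dUTP strand marking, per the labels' protocols, but whether strand was used in quantification is not given in the sources used here, so reads of the overlapping ends may be shared between these pairs.

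Members elsewhere can be set beside their neighbours in the same way. Across the 44 genes the difference of a gene and the median difference of its tested neighbours within 2 Mb (4 to 123 genes) had a Pearson r of 0.618 and a Spearman rho of 0.480. Over the 41 genes outside chromosome 16 these were 0.313 and 0.357. These are descriptions across genes that share the same 6 libraries, and genes are not independent replicates. Rrm2 had 7 tested neighbours with a median of 0.07, and Mcm3 (-0.06) had 4 with a median of 0.08, of the opposite sign.

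**Figure D5:**
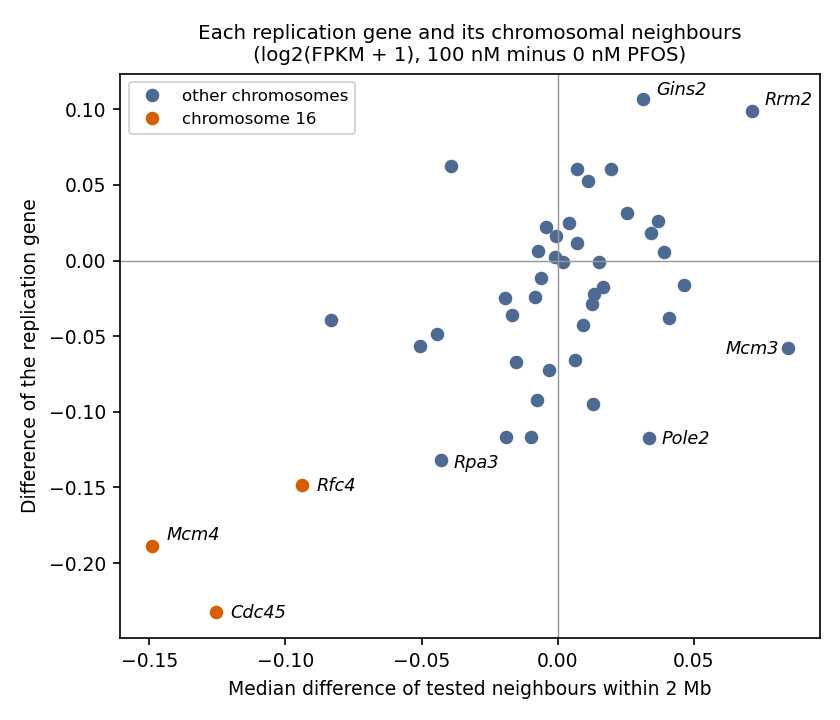
Each point is a replication gene, with its own difference in log2(FPKM + 1) on the vertical axis and the median difference of the tested genes within 2 Mb on the horizontal axis, both 100 nM minus 0 nM. Mcm4, Cdc45 and Rfc4 (orange) are low on both axes, and most other genes lie near 0 on both.

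Genes that work around the fork were read from lists of 106 companions, all tested and likewise chosen with earlier results known. Of these, 3 fell and 2 rose, against 2.46% called lower and 1.69% called higher of all tested genes. The median difference of the companions was -0.03. Dbf4, the regulatory subunit of the Cdc7 kinase that triggers origin firing, had 22.1, 22.2 and 22.3 FPKM at 0 nM and 19.3, 18.3 and 17.6 FPKM at 100 nM, a difference of -0.26 (limma adjusted p = 0.0180), and was the only called gene of 9 firing factors. Ccne1, cyclin E1, which drives entry into S phase, had 7.34, 6.91 and 6.52 FPKM at 0 nM and 4.81, 4.74 and 5.47 FPKM at 100 nM (difference -0.40, limma adjusted p = 0.0240). Cdkn1b, the inhibitor p27 of cyclin E kinase, had 18.7, 19.5 and 19.4 FPKM at 0 nM and 22.7, 21.9 and 21.6 FPKM at 100 nM (difference 0.19, limma adjusted p = 0.0240). The groups of all 3 genes are apart, with the 100 nM libraries lower for Dbf4 and Ccne1 and higher for Cdkn1b. Of the 23 genes of G1/S control, 20 had a lower mean (87.0%, against 47.4% of all tested genes) and 3 a higher one. Their median was -0.04, and Ccne1 and Cdkn1b were the only calls. When each of the 6 libraries was left out in turn, the call of Dbf4 was kept 2 times and those of Ccne1 and Cdkn1b 1 time each, with limma adjusted p-values up to 0.0980, 0.106 and 0.109 over all alternatives. In 12 of the 23 the doses did not overlap, with the 100 nM libraries lower in 10 and higher in 2. Over all tested genes 26.9% did not overlap, 13.3% lower and 13.7% higher. Of all 106 companions 36 did not overlap, 27 lower and 9 higher. Of the 20 mitosis genes 8 did not, 7 lower and 1 higher. Among the E2F factors, E2f4 (-0.06), E2f7 (-0.09) and E2f8 (-0.09) were lower in all 3 libraries at 100 nM without passing the adjustment (limma adjusted p 0.0956 for E2f8, 0.148 for E2f4 and 0.25 for E2f7), and E2f1, E2f2, E2f3 and E2f6 overlapped between the doses.

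Tipin, which with Timeless protects the fork, had 47.4, 47.4 and 44.1 FPKM at 0 nM and 52.2, 53.9 and 52.5 FPKM at 100 nM (difference 0.19, limma adjusted p = 0.0364), the only call among 12 fork protection and checkpoint genes. Its 41 tested neighbours on chromosome 9 had a median difference of 0.15, and 12 of them were called higher and 0 lower. The call of Tipin was lost when any of the 6 libraries was left out, while its difference stayed between 0.15 and 0.20 over all alternatives. Umps, which makes the pyrimidine precursor UMP, had 48.5, 48.7 and 49.3 FPKM at 0 nM and 35.5, 35.4 and 33.7 FPKM at 100 nM. That is a difference of -0.48 (limma adjusted p = 0.00103), and Umps lies in the same stretch of chromosome 16, where 18 of its 34 neighbours were called lower. Its call was kept in all 6 of these fits. The 10 other nucleotide enzymes, the 19 further fork enzymes, the 12 chromatin assembly genes and the 20 mitosis genes held no call. Their smallest p-values belonged to Pif1, a helicase that lies near Tipin (0.27, limma adjusted p = 0.0714), the histone chaperone Nasp (-0.10, 0.0703) and the proliferation marker Mki67 (-0.07, 0.0859). Mki67 was at 54.3, 54.8 and 54.2 FPKM at 0 nM and at 51.7, 52.1 and 51.1 FPKM at 100 nM.

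Library sums were 306716 to 309381 FPKM, and depth is unknown because the files hold no counts. All 6 epithelial markers were measured, with a summed level of 714 to 715 FPKM at 0 nM and 751 to 802 FPKM at 100 nM. Markers of T and NK cells summed to 0.16 to 0.25 FPKM in 5 libraries and to 25.5 FPKM in 100 nM replicate 3, where all 10 listed genes were above 0 and Gzmb was at 14.9 FPKM. Myeloid markers summed to 148 to 186 FPKM at 0 nM and to 145, 279 and 295 FPKM in 100 nM replicates 1, 2 and 3. Leaving out replicate 3 therefore keeps the higher myeloid sum of replicate 2. Fibroblast markers summed to 3.47 to 3.91 FPKM at 0 nM and to 3.26, 3.44 and 7.48 FPKM in 100 nM replicates 1, 2 and 3. B cell and endothelial markers stayed at or under 0.39 FPKM. The part of epithelial, myeloid and fibroblast RNA in the differences of the replication genes was not tested. Without 100 nM replicate 3, 1 of the 44 genes was called lower and 0 higher. Mcm4 then kept a difference of -0.17 and its call (limma adjusted p = 0.0178), while Cdc45 kept a difference of -0.21 and lost it (adjusted p = 0.0974). Leaving out any of the 6 libraries ended the call of Cdc45, which was lost in 11 of the 15 alternative settings (adjusted p 0.0281 to 0.190) and Mcm4 lost its call in 2 of 15 (0.00487 to 0.0661).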

How the data were processed

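Poly(A) RNA of 6 libraries was read in pairs with dUTP strand marking, per the labels' protocols. The deposited values are FPKM per gene. The tools fastp, HISAT2 and StringTie are listed per the submitters' processing notes, as are mm10 and GRCh38. Which versions were run, and what GRCh38 served for, is not given in the sources used here. Symbols came from GENCODE M21 (GRCm38), which holds 28350 of the 28418 identifiers, and 25640 have the same coordinates there.

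Limma-trend (limma 3.58.1, R 4.3.3) was fitted to log2(FPKM + 1), 100 nM minus 0 nM, two-sided, over 11741 genes (mean at or above 1 FPKM), and checked on simulated data. The log2 scale with this pseudocount understates changes of low genes. In a search for the value of 1 read, 23.0% to 26.2% of low values were whole multiples to a tolerance of 0.1, and no reads could be recovered. Where a symbol had 2 identifiers (Chtf8), the one with the higher mean was used. Values by library are given for members that were called, lie on chromosome 16, or have the highest mean or smallest p of their role. Of companion lists, called genes and the smallest p are named, and of chromosome 16 the nearest 2 tested genes on each side. Gmnn, Pole, Rrm1, Tyms and E2f genes were added after their values were seen. The members and lists were chosen with earlier results of these data known. Alternatives covered scaling, pseudocount, filters, the variance model, a replicate block, protein-coding genes only, and libraries left out. Python 3.11.15 with pandas 2.3.3, scipy 1.17.1 and matplotlib 3.10.9 did the rest.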

Additional observations from a re-analysis of the deposited data

How the results depend on the processing

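Over 15 alternatives Mcm4, Cdc45 and Rfc4 kept the lower level at 100 nM, Rrm2 kept the higher one, and no called gene changed sign. Of the 44 genes, 16 changed sign at least once, all with a main difference of at most 0.06 and none of them called. All tested genes gave 487 calls, against 204 with no filter on low values, 294 without limma's trend, 91 without replicate 3 of both groups and 122 to 290 when 1 library was left out. Over all alternatives the count ran from 58 to 653, the highest with protein-coding genes only. The 2 replication genes called lower became 1 (Mcm4) with quantile normalization, with no filter, without the trend and in each of the 6 fits that left out 1 library (1 to 1), and 0 without replicate 3 of both groups. Quantile normalization, a mean of at least 5 FPKM and protein-coding genes only each gave 1 replication gene called higher, Rrm2, in place of 0. The 5 companion calls became 2 with no filter, 2 without replicate 3 of both groups and 1 to 4 with 1 library left out. On chromosome 16 the 72 genes called lower became 16 to 89 over the alternatives, with a median difference below 0 in each. The share of lower calls was 59.3%, and 65.6% after median centring.

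Replicate numbers showed no pairing in the values, since deviations of same-numbered libraries correlated at -0.033, -0.053 and 0.007 across genes. These correlations do not settle whether the samples were handled in pairs. With the replicate number as a block, 58 genes were called, of which 0 were replication genes called lower and 1 was a companion (Umps), and Mcm4 had an adjusted p of 0.0661.

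Without counts, depth limits on low genes cannot be given. Of the 44 genes, 13 share at least 10% of their 31-base words, on either strand, with transcripts of other genes. Among them are Orc2 (27.9%) and Pcna (23.3%). On the opposite strand, 17 of the 44 overlap an annotated gene, 11 of them a protein-coding one.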
